A study of Mus musculus with 16 samples.

Results

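Malat1, Neat1, Meg3, Miat, Rian, Mirg and Snhg11 are long noncoding RNA genes, transcripts that are not known for a protein product. They were taken by name, and each matched 1 identifier, so 7 of the 55356 identifiers in the count table are described here. The set was chosen because Malat1 is higher after nocodazole, so the change of these transcripts with nocodazole in the absence of inhibitor is given as a description, without a test. The RNA came from dorsal root ganglion neurons of CD1 mouse embryos, the sensory neurons of touch, temperature and pain, grown in medium that held nerve growth factor and a mix of uridine and fluorodeoxyuridine, an agent against dividing cells. At 6 days in vitro each culture received DMSO, the solvent, or 500 nM GNE3511, which inhibits DLK, dual leucine zipper kinase, a stress kinase that signals axon damage to the nucleus. After 15 min it received DMSO or 200 nM nocodazole, which makes microtubules disassemble, for 16 h. The 4 groups are called DMSO (DMSO then DMSO), nocodazole (DMSO then nocodazole), inhibitor (GNE3511 then DMSO) and inhibitor plus nocodazole (GNE3511 then nocodazole), with 4 libraries each. With 1 compound at 1 dose, an effect through DLK cannot be told apart from an effect through another target.

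Long noncoding RNAs act as RNA, and many stay in the nucleus. Malat1 collects in nuclear speckles, bodies rich in splicing factors, and its mature end is made by RNase P, an enzyme of transfer RNA processing, rather than by the usual cleavage and polyadenylation. Neat1 is the scaffold of paraspeckles, nuclear bodies built with RNA-binding proteins such as SFPQ and NONO. Meg3, Rian and Mirg lie in a row in the Dlk1-Dio3 imprinted cluster, are expressed from the maternal chromosome, and carry microRNA and small nucleolar RNA genes within them. Miat, also called Gomafu, is a nuclear RNA of neurons that binds splicing factors. Snhg11 is a host of small nucleolar RNAs that is typical of neurons.

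The reference annotation, GENCODE M21 on GRCm38, is not the GRCm39 build of the count table and was used only for symbols, lengths and neighbours. In it Malat1 (ENSMUSG00000092341) and Neat1 (ENSMUSG00000092274) are long genes on the minus strand of chromosome 19, each 1 exon block, of 6983 and 20771 bases, with 22035 bases and 1 annotated gene, not protein coding, between them. Meg3 (ENSMUSG00000021268), Rian (ENSMUSG00000097451) and Mirg (ENSMUSG00000097391) follow each other on the plus strand of chromosome 12, with 8, 19 and 14 exon blocks. Miat (ENSMUSG00000097767) is on chromosome 5 and Snhg11 (ENSMUSG00000044349) on chromosome 2. GENCODE M21 types Snhg11 as protein coding, whereas RefSeq types it as a long noncoding RNA. The GC content of the longest transcript ranged from 35.8% in Rian to 55.1% in Miat.

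RefSeq promoter windows, 250 bases before to 50 after an annotated start, were found for 6 of the 7 genes, and Neat1 had none in the table. The windows were searched on both strands for the AP-1 site TGANTCA, the CRE TGACGTCA, the ATF4 composite element TGATGNAAN and the heat shock element GAANNTTC, because the study concerns a kinase upstream of AP-1 and ATF factors. Meg3 and Rian are shown because they lie in 1 cluster and Meg3 was called in tests that Rian did not pass, and Malat1 because its level gave the set its name. Capitals mark the CRE in Meg3 and the heat shock element in Rian. In 32544 distinct promoter windows of the table, 1.8% held the CRE, 7.89% the heat shock element, 7.79% the AP-1 site and 3.9% the ATF4 element. The windows of Malat1, Miat, Mirg and Snhg11 and a further Meg3 window held none of the 4 motifs. A match is a match of letters only.
Malat1, GRCm38.p6 chr19:5802623-5802922, minus strand: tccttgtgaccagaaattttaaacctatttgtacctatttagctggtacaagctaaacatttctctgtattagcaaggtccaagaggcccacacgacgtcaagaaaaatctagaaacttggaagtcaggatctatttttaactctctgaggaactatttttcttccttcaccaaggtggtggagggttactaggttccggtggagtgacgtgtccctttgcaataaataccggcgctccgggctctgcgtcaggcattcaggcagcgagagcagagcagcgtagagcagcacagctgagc
Meg3, GRCm38.p6 chr12:109540746-109541045, plus strand: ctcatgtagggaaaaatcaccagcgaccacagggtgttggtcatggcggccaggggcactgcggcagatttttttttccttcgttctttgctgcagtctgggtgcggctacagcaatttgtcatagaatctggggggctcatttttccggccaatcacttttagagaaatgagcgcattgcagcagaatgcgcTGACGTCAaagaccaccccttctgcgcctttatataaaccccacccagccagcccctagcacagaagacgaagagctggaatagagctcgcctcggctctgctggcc
Rian, GRCm38.p6 chr12:109603695-109603994, plus strand: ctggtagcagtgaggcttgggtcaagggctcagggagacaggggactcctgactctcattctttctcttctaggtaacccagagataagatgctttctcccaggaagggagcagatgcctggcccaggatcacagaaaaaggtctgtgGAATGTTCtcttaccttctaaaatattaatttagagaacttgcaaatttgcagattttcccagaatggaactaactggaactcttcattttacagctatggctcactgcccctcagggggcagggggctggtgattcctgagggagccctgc

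Each library held between 30987962 and 43321421 counts, and the 7 transcripts together made up between 1.18% and 2.17% of them. Inhibitor plus nocodazole replicate 1 stood apart from the other 3 libraries of its group, with a chi-square per degree of freedom of 49.6 to 51.3 against each, where those 3 had 8.28 to 19.3 among themselves and pairs in the other groups 9.76 to 39.8. Without it Neat1 and Miat with inhibitor on top of nocodazole, and the interactions of Neat1, Miat and Meg3 kept their calls (largest edgeR adjusted p = 0.0181). Levels are given as CPM, counts relative to the scaled library size. The cultures carried the RNA of sensory neurons. All 15 neuronal markers averaged at least 1 CPM, and their summed level was 17410 to 18440 CPM in DMSO, 15730 to 18410 in nocodazole, 15300 to 16910 in inhibitor and 14850 to 17200 in inhibitor plus nocodazole. These sums are mostly Nefl, Nefm and Prph, and single markers moved. With nocodazole 7 of the 15 fell and 1 rose, with Rbfox3, a neuronal splicing factor, at -0.82 and Isl1, a sensory neuron transcription factor, at -0.55 on the log2 scale (edgeR adjusted p = 8.87e-06 and 5.91e-06). With inhibitor on top of nocodazole 5 rose and 1 fell, against 17.7% and 16.2% of all genes. The interaction was called for 4 of the 15, all positive, against 9.52% of all genes. Of 13 Schwann cell and satellite glia markers, 9 were under 1 CPM on average, among them Sox10 at 0.195. The summed level of the 13 was 162 to 186 CPM in DMSO, against 96.0 to 148 in nocodazole, 95.4 to 162 in inhibitor and 82.0 to 148 in inhibitor plus nocodazole, and most of it was S100b and Mbp, at 70.8 and 56.0 CPM. The sum does not stand for the list, of which 6 genes were tested. With nocodazole 2 of the 6 rose and 1 fell, with a median log2 change of 0.24. With inhibitor alone 0 rose and 2 fell, against 5.78% and 7.24% of all genes, with a median of -0.42 against 0.027. Markers of fibroblasts (8 of 9), endothelium (6 of 6), macrophages (6 of 8) and pericytes and smooth muscle (6 of 6) were under 1 CPM, and none of any list was at 0 in all 16 libraries. The fibroblast sum was 7.14 to 10.7 CPM in nocodazole and 2.73 to 8.06 CPM in the other groups, and the macrophage sum was 4.31 to 5.65 CPM in nocodazole and 1.82 to 3.17 CPM in the others. The part of other cells, or of the neuronal marker changes, in the results was not tested. In bulk RNA, fewer cells of a type and less RNA per cell cannot be told apart.

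Per kilobase of exon, 5 of the 7 transcripts were abundant and Neat1 and Mirg were not. Malat1 ranged from 882 to 1830 CPM per kb over the 16 libraries and ranked 5 of 19084 tested genes with a known length. Meg3 followed, at 176 to 289 CPM per kb and rank 89, and then Snhg11 at 124 to 193 and rank 180. Miat lay between 65.9 and 99.7 CPM per kb and Rian between 66.8 and 84.1, and these ranges overlapped. Mirg ranged from 7.96 to 10.8 CPM per kb, rank 4676. Neat1 ranged from 0.250 to 1.24 CPM per kb, rank 14390, so the word abundant did not hold for it in these neurons, and its values rest on 175 to 852 counts per library. These levels use exon lengths of GENCODE M21, and transcripts shorter than the merged exons are understated.

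The first comparison asks what nocodazole did without inhibitor. Malat1, Neat1, Meg3, Miat and Snhg11 had higher means with nocodazole than in DMSO, while Rian and Mirg stayed near their DMSO means. Malat1 stood at 8124, 7367, 8398 and 6161 CPM in DMSO replicates 1 to 4 and at 12782, 12610, 11752 and 11215 CPM in nocodazole replicates 1 to 4. Every nocodazole library was above every DMSO library. The log2 difference was 0.69 ± 0.112 (SE), a fold of 1.61. Neat1 stood at 6.56, 5.18, 7.03 and 5.43 CPM in DMSO and at 16.1, 12.7, 25.8 and 16.9 CPM with nocodazole. Its groups did not overlap either, and replicate 3 was the highest by far. The log2 difference of Neat1 was 1.56 ± 0.196 (SE), a fold of 2.95, and between 1.31 and 1.69 with any 1 library left out.

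**Figure D1:**
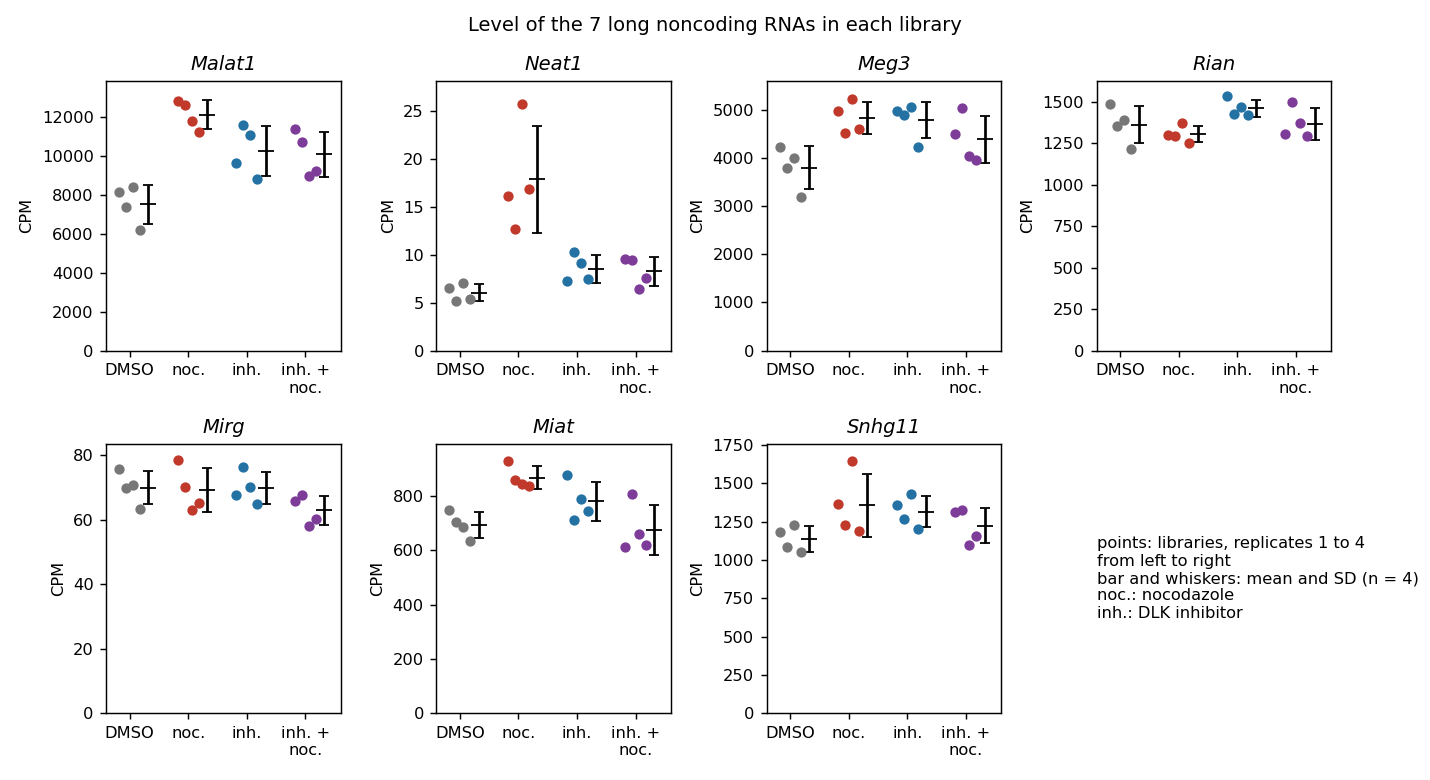
CPM (linear axes from 0) of the 7 transcripts in the 16 libraries by group, as points in the order of replicates 1 to 4, with the mean and SD of 4 libraries at the right of each group. The DMSO libraries of Malat1 lie below all others, the nocodazole libraries of Neat1 lie above all others, and the groups of Rian and Mirg overlap.

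Meg3 stood at 4224, 3779, 3998 and 3187 CPM in DMSO and at 4973, 4516, 5223 and 4606 CPM with nocodazole, a log2 difference of 0.35 ± 0.0966 (SE). Miat stood at 746, 704, 685 and 632 CPM in DMSO and at 926, 858, 843 and 835 CPM with nocodazole, a log2 difference of 0.32 ± 0.0878 (SE). In both, all nocodazole libraries were above all DMSO libraries. Snhg11 ranged from 1054 to 1231 CPM in DMSO and from 1188 to 1645 CPM with nocodazole, with overlap and a log2 difference of 0.26 ± 0.0976 (SE). It was 0.13 without nocodazole replicate 3. Rian and Mirg had log2 differences of -0.06 ± 0.0661 and -0.01 ± 0.0775 (SE), with overlapping groups. In the fit across all genes, 37.5% of 19156 genes were called in this comparison, and 5 of the 7 transcripts were among them, all higher. Since the set was chosen on this comparison, nothing is read from that count.

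The second comparison asks what the DLK inhibitor did without nocodazole. Meg3 rose, and the other 5 transcripts tested did not pass. Their p-values reuse the DMSO libraries of the comparison on which the set was chosen. Meg3 stood at 4962, 4881, 5051 and 4222 CPM in inhibitor replicates 1 to 4, against 3187 to 4224 CPM in DMSO. Inhibitor replicate 4 lay just within the DMSO range and the other 3 lay above it. Its change on the log2 scale was 0.33 ± 0.0965 (SE, edgeR adjusted p = 0.0329), where 13.0% of all genes were called. The call for Meg3 did not survive leaving out DMSO replicate 2 (edgeR adjusted p = 0.0739) or 4 (0.112), inhibitor replicate 1 (0.0995), 2 (0.0833) or 3 (0.0958), or nocodazole replicate 4 (0.0551), and it ranged from 0.00905 to 0.0482 under the other tools and settings.

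Malat1 shares its DMSO libraries with the comparison it was chosen on, so its values with inhibitor are a description. They were 9603, 11569, 11042 and 8796 CPM in inhibitor replicates 1 to 4, all above the highest DMSO library at 8398 CPM. The log2 difference was 0.45 ± 0.111 (SE), against 0.69 for nocodazole with the same DMSO libraries. Neat1 was between 7.27 and 10.3 CPM with inhibitor, above all DMSO libraries, and its log2 change of 0.49 ± 0.196 (SE) did not pass (edgeR adjusted p = 0.106). With only the inhibitor and DMSO libraries in the fit it passed (edgeR adjusted p = 0.0432), and over all alternatives the adjusted p ran from 0.0432 to 0.281. Snhg11 had a change of 0.21 (edgeR adjusted p = 0.166, 95% interval 0.0019 to 0.41) and Miat one of 0.17 (adjusted p = 0.205, -0.01 to 0.36). For Rian the change was 0.10 (edgeR adjusted p = 0.324, 95% interval -0.04 to 0.24), and for Mirg -0.0021 (adjusted p = 0.989, -0.17 to 0.16).

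**Figure D2:**
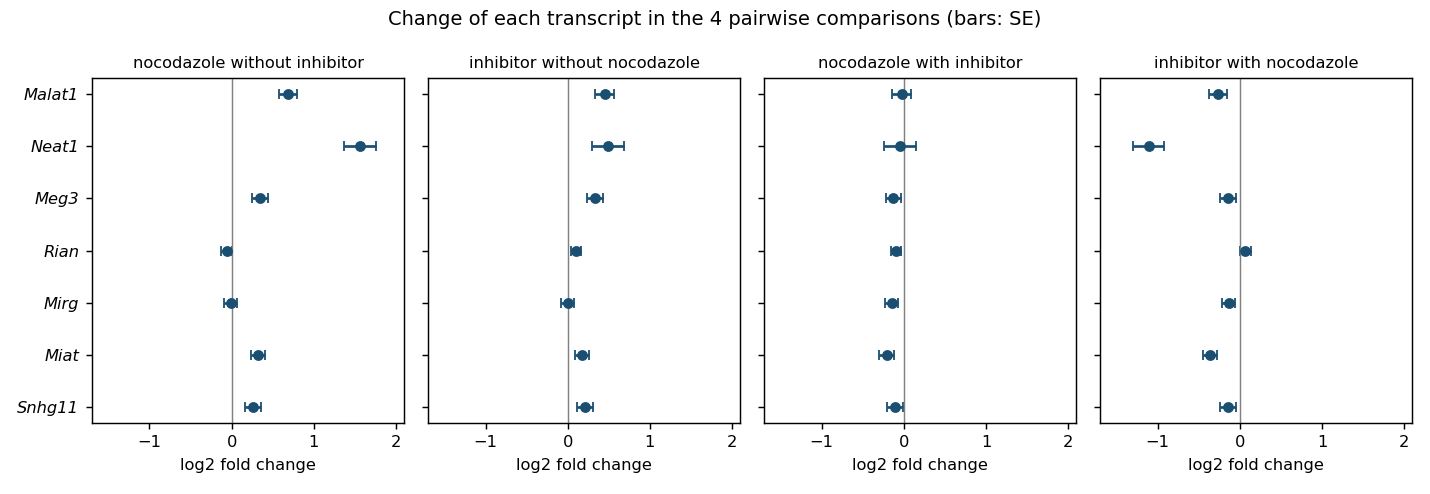
Log2 fold change (horizontal axis) with its SE for the 7 transcripts in the 4 pairwise comparisons of groups. With nocodazole alone Neat1 is farthest from 0 at 1.56, with nocodazole on top of the inhibitor all lie between -0.21 and -0.03, and with inhibitor on top of nocodazole Neat1 is at -1.11.

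The third comparison asks what nocodazole did when DLK was inhibited, and it shares no library with the comparison that chose the set. None of the 7 transcripts passed in edgeR, all 7 log2 changes were below 0, and 1 of them, that of Miat, had an unadjusted p under 0.05. In this comparison 16 of 19156 genes were called, 0.0835%, and 1146 had an unadjusted p under 0.05. With 1 library left out the count was between 3 (without inhibitor replicate 3) and 88 (without inhibitor plus nocodazole replicate 1, the library that stood apart), and none of the 7 was called in either. DESeq2 called 127 genes and none of the 7. Malat1 stood at 11373, 10716, 8957 and 9202 CPM in inhibitor plus nocodazole replicates 1 to 4, all within the inhibitor range of 8796 to 11569 CPM. Its log2 change was -0.03 ± 0.111 (SE, edgeR adjusted p = 0.999), with a 95% interval of -0.26 to 0.21. Neat1 stood at 9.56, 9.46, 6.42 and 7.60 CPM, a change of -0.05 ± 0.194 (edgeR adjusted p = 0.999, 95% interval -0.46 to 0.36). Without inhibitor the difference of Neat1 was 1.56, given as a description, and no test is read from setting the 2 values side by side.

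Miat had the largest of the 7 changes under inhibitor, -0.21 ± 0.0877 (SE, edgeR adjusted p = 0.76, 95% interval -0.39 to -0.02). It stood at 876, 709, 788 and 742 CPM with inhibitor and at 612, 807, 658 and 617 CPM with inhibitor plus nocodazole, where replicate 2 overlapped the inhibitor group and the others lay below it. Meg3 had a change of -0.13 and Snhg11 one of -0.10 (edgeR adjusted p = 0.99 for both). Rian and Mirg had changes of -0.10 (edgeR adjusted p = 0.981) and -0.15 (0.886).

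Whether the nocodazole change differed with inhibitor was tested as an interaction, the change with inhibitor minus that without. It was called for Neat1, Miat and Meg3, all negative, where 18.7% of all genes were called in either direction, 9.52% in the positive direction and 9.20% in the negative one. The interaction contains the comparison on which the set was chosen, so for Malat1 it is a description, -0.71 ± 0.157 (SE). For the other transcripts its p-values reuse that comparison too. The Neat1 value below, for example, combines -0.05 with inhibitor and 1.56 without. These calls are therefore not separate support for the nocodazole changes. Neat1 had an interaction of -1.60 ± 0.275 (SE, edgeR adjusted p = 0.00096), and between -1.73 and -1.36 with any 1 library left out. Miat had one of -0.53 ± 0.124 (SE, edgeR adjusted p = 0.00757) and kept its call with each library left out (adjusted p from 0.00119 to 0.0205). Meg3 had one of -0.47 ± 0.136 (SE, edgeR adjusted p = 0.024). The Meg3 call was lost without nocodazole replicate 3 (edgeR adjusted p = 0.055), inhibitor replicate 3 (0.0535), or inhibitor plus nocodazole replicate 3 (0.0527) or 4 (0.0571). Snhg11 did not pass at -0.36 (edgeR adjusted p = 0.0812), nor did Mirg at -0.14 (0.406) and Rian at -0.03 (0.83).

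The inhibitor was also compared with no inhibitor among nocodazole-treated cultures. Neat1 and Miat were lower with inhibitor, where 33.9% of all genes were called. The p-values here reuse the nocodazole libraries of the comparison on which the set was chosen. These calls are therefore not separate support for the nocodazole changes. Neat1 went from a mean of 17.9 to 8.26 CPM, -1.11 ± 0.193 on the log2 scale (SE, edgeR adjusted p = 0.000294), and all 4 libraries with inhibitor were below the 4 without. Miat went from 865 to 674 CPM, -0.36 ± 0.0878 (SE, edgeR adjusted p = 0.00426), again without overlap. Meg3 (-0.14, edgeR adjusted p = 0.289), Snhg11 (-0.15, 0.265), Mirg (-0.14, 0.188) and Rian (0.07, 0.483) did not pass. Malat1 had a log2 difference of -0.26 ± 0.111 (SE), given as a description because its nocodazole libraries are those it was chosen on. The ranges of Malat1 touched, with inhibitor plus nocodazole replicate 1 at 11373 CPM above nocodazole replicate 4 at 11215 CPM.

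By group mean, Malat1 ran in the order DMSO, inhibitor plus nocodazole, inhibitor and nocodazole, and only DMSO was separate from its neighbour. Neat1, Meg3 and Snhg11 had the same order. For Neat1 only nocodazole was separate from its neighbour. For Meg3, Snhg11, Miat, Rian and Mirg every group overlapped its neighbour in the order.

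Within each of the 4 groups, the 2 libraries with the most Malat1 were also the 2 with the largest share of mitochondrial transcripts, which can move with the state of cells or RNA. In the inhibitor group these were replicates 2 and 3, with 1.39% and 1.78% mitochondrial counts, against 1.08% and 1.06% in replicates 1 and 4. In the inhibitor plus nocodazole group they were replicates 1 and 2, with 1.71% and 1.09%, against 0.944% and 0.865%. The shares overlapped between nocodazole and DMSO: nocodazole replicate 3 had 0.875% and 11752 CPM of Malat1, and DMSO replicate 1 had 1.07% and 8124 CPM. Inhibitor replicates 4 and 1, whose shares of 1.06% and 1.08% were close to that of DMSO replicate 1, had 8796 and 9603 CPM. Of the 13 mitochondrially encoded messenger RNA genes none was called by edgeR in any comparison, where it called 0.0835% to 37.5% of all genes. DESeq2 called 1 of the 13 with nocodazole. Their medians had the signs of the Malat1 and Meg3 values in these comparisons. With inhibitor alone 8 of 13 were higher at an unadjusted p under 0.05, with a median log2 change of 0.37. Of all genes 29.4% reached that level in either direction. With nocodazole alone 1 of 13 was higher at that level, against 46.5% of all genes in either direction, with a median of 0.26. For the interaction 2 of 13 were negative at that level, against 33.4% of all genes in either direction, with a median of -0.45. The part of RNA quality in the values of Malat1, Meg3 and the other transcripts was not tested.

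**Figure D3:**
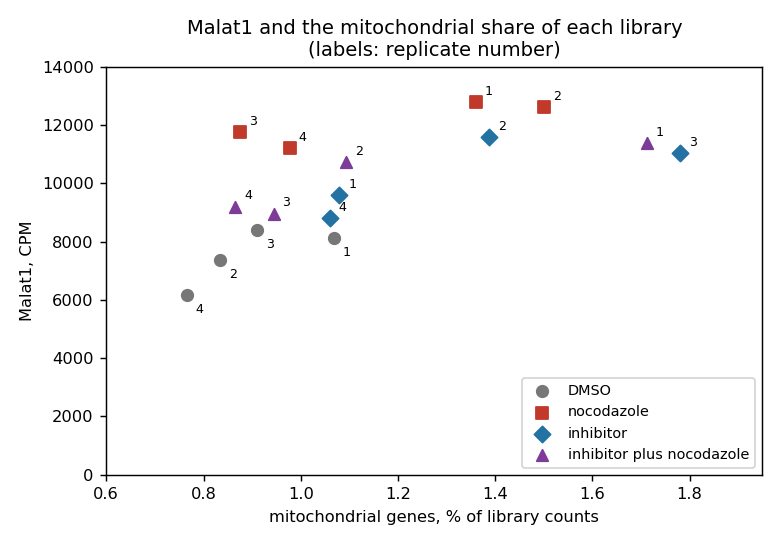
Malat1 in CPM (vertical axis, from 0) against the share of counts from mitochondrial genes (horizontal axis, percent) in the 16 libraries, with symbols for the group and numbers for the replicate. Nocodazole replicates 3 and 4 sit at 11752 and 11215 CPM at shares of 0.875% and 0.977%, where DMSO libraries lie between 6161 and 8398 CPM.

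The ratios of transcripts that lie close together were compared within each library. Rian amounted to 36.0 ± 1.52% of the Meg3 counts in DMSO (SD, n = 4), 27.1 ± 1.16% with nocodazole, 30.7 ± 2.1% with inhibitor and 31.4 ± 2.33% with both. The DMSO libraries, at 34.9% to 38.2%, lay above all others, and the nocodazole libraries, at 26.2% to 28.7%, lay below all others. With inhibitor against DMSO the log2 ratio differed by -0.23 ± 0.0569 (SE), and with inhibitor plus nocodazole against nocodazole by 0.21 ± 0.0616. Each gave p = 0.0286 in a two-sided exact permutation test, the smallest that 4 against 4 libraries allow, and an adjusted p of 0.0667 over 7 such tests, so neither passed after adjustment. With nocodazole against DMSO the difference was -0.41 ± 0.0427 (SE), as a description.

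Mirg amounted to 1.85 ± 0.0967% of the Meg3 counts in DMSO (SD, n = 4), 1.44 ± 0.17% with nocodazole, 1.46 ± 0.104% with inhibitor and 1.44 ± 0.0745% with both. All 12 treated libraries were below the 4 DMSO libraries. The inhibitor difference was -0.34 ± 0.0633 on the log2 scale (SE, exact permutation p = 0.0286, 0.0667 adjusted). Under inhibitor, nocodazole moved neither ratio beyond the spread (0.03 for Rian, exact permutation p = 0.714, and -0.02 for Mirg, p = 0.743). Neat1 amounted to 0.0807 ± 0.00754% of the Malat1 counts in DMSO, 0.149 ± 0.0509% with nocodazole, 0.0831 ± 0.00551% with inhibitor and 0.0817 ± 0.00706% with both (SD, n = 4). Its nocodazole libraries, at 0.101% to 0.219%, lay above all others.

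**Figure D4:**
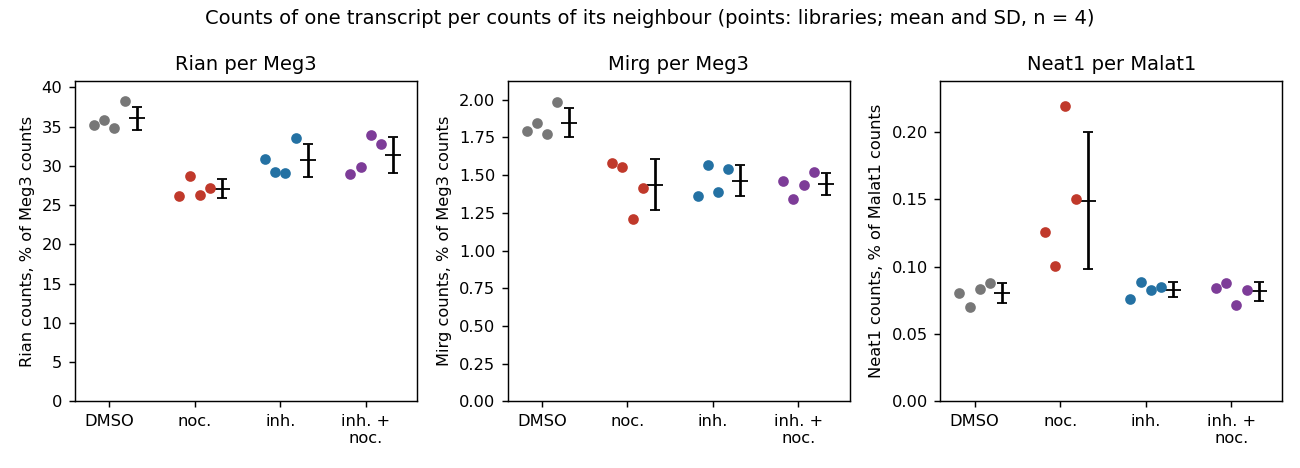
Counts of Rian and Mirg as a percentage of Meg3 counts, and of Neat1 as a percentage of Malat1 counts, per library and group, with the mean and SD of 4 libraries. Rian per Meg3 is highest in DMSO at 34.9% to 38.2% and lowest with nocodazole, and Neat1 per Malat1 reaches 0.219% with nocodazole.

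The small RNA genes inside these transcripts were hardly read. GENCODE M21 places 35 microRNA and small nucleolar RNA genes within the 7 transcripts, of which 29 were in the table. Of these, 26 were listed at 0 in all libraries, and the highest, Mir1188 inside Rian, had 76 counts over all libraries. How reads that overlap several genes were divided is not given in the sources used here.

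Other genes of the Dlk1-Dio3 cluster were compared with the 3 transcripts it contributes. Of 8 listed genes 7 passed the filter on low counts, and 4 of these are not among the 3 transcripts. Of the 4, Begain was the 1 gene that fell with nocodazole, where 19% of all genes fell, and the 1 that fell with inhibitor alone, where 7.24% did, and none rose in either. Begain, which encodes a protein of synapses, fell by 0.36 with nocodazole (edgeR adjusted p = 0.0155) and by 0.37 with inhibitor (0.0369) on the log2 scale. Begain lost its nocodazole call without nocodazole replicate 1 (edgeR adjusted p = 0.0546). Its inhibitor call was lost without any 1 of DMSO replicates 1 to 4 (edgeR adjusted p = 0.0607, 0.0659, 0.0516 and 0.1) or inhibitor replicate 2 (0.126) or 3 (0.0961). Dlk1, which encodes a Notch-like membrane protein, was at 25.2 ± 2.72 CPM in DMSO and 15.3 ± 7.1 CPM with nocodazole (SD, n = 4) and did not pass (edgeR adjusted p = 0.0767). The retrotransposon-like gene Rtl1, on the opposite strand of the same cluster, had a change of 0.05 (edgeR adjusted p = 0.702). The median of all 7, Meg3, Rian and Mirg included, was -0.06 for nocodazole, against 0.01 over all tested genes.

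Genes for the proteins of nuclear speckles, where Malat1 resides, were higher with nocodazole in 18 of 36 cases and lower in 2, against 18.6% and 19% of all genes. Their median log2 change was 0.18, against 0.01 for all genes. Tra2a, a splicing activator, rose by 0.90 (edgeR adjusted p = 7.16e-06), Ccnl1, a cyclin found in speckles, by 0.65 (1.45e-05), and Nktr, a cyclophilin with an SR-rich tail, by 0.57 (0.000213). With inhibitor alone 6 of 36 rose and 1 fell, against 5.78% and 7.24% of all genes. Under inhibitor none passed with nocodazole in edgeR or DESeq2, against 0.0783% of all genes higher and 0.00522% lower in edgeR. There 1 of 36 had an unadjusted p under 0.05, against 5.98% of all genes. With inhibitor on top of nocodazole 1 rose and 16 fell, against 17.7% and 16.2% of all genes, among them Tra2a at -1.07 (edgeR adjusted p = 1.25e-06). The interaction was negative and called for 12 of 36, against 9.20% of all genes.

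Of 26 genes for paraspeckle proteins, the partners of Neat1, 5 rose and 5 fell with nocodazole, with a median of -0.03, which is near the 18.6% and 19% of all genes. Taf15, which encodes an RNA-binding protein, had means that moved from 21.8 ± 2.16 to 57.3 ± 4.82 CPM (SD, n = 4), which is 1.39 on the log2 scale (edgeR adjusted p = 5.03e-07), and Cpsf6, a subunit of a cleavage factor for RNA ends, rose by 0.73 (3.97e-05). Hnrnpr, an RNA-binding protein gene, fell by 0.35 (edgeR adjusted p = 0.00173). With inhibitor alone 2 rose and 2 fell, against 5.78% and 7.24% of all genes. With inhibitor on top of nocodazole 3 rose and 9 fell, against 17.7% and 16.2% of all genes, with a median of -0.09. Taf15 had an interaction of -1.18 (edgeR adjusted p = 0.000302).

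**Figure D5:**
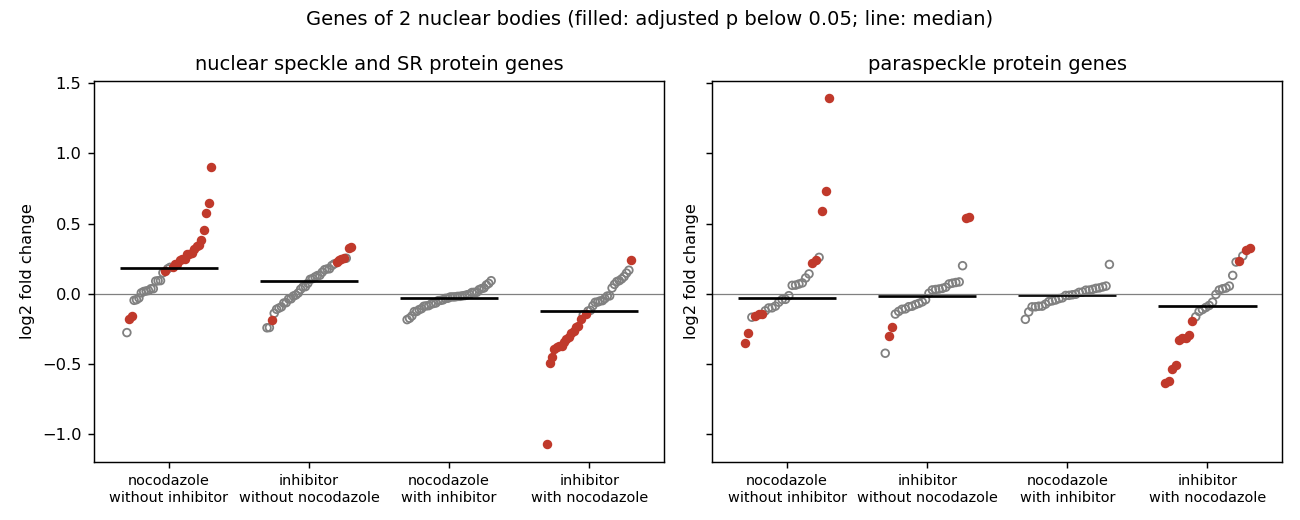
Log2 fold change (vertical axis) of 36 nuclear speckle and 26 paraspeckle protein genes, ordered by value within each of the 4 comparisons, filled where the adjusted p was below 0.05, with the list median as a line. The speckle genes have medians of 0.18 with nocodazole alone and -0.12 with inhibitor on top of nocodazole, and no gene of either list is filled for nocodazole under inhibitor.

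Of 22 genes for enzymes and proteins that process or bind Malat1, 4 rose and 3 fell with nocodazole (median -0.02), near or below the 18.6% and 19% of all genes. With inhibitor on top of nocodazole 0 rose and 5 fell (median -0.11), against 17.7% and 16.2% of all genes. Elac2, which encodes RNase Z, the nuclease that trims the small RNA released from the end of Malat1, fell by 0.24 with nocodazole (edgeR adjusted p = 0.00432) and by 0.24 with inhibitor (0.014). The inhibitor call for Elac2 ended when DMSO replicate 4 was left out (edgeR adjusted p = 0.0515) or inhibitor replicate 2 (0.0567). Ptbp1, a splicing repressor, rose by 0.65 with nocodazole (edgeR adjusted p = 0.000628).

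Among 48 other long noncoding RNA genes that passed the filter, out of 69 listed and 59 in the table, 22 rose and 6 fell with nocodazole, against 18.6% and 19% of all genes. Their median log2 change was 0.51, against 0.01 for all genes, and the interaction was negative and called for 15 of 48, against 9.20%. The filter keeps a gene with enough counts in as many libraries as 1 group holds. A scarce RNA can thus enter the list through the group where it is high, which can raise this median and these counts. The part of the filter in them was not tested. With inhibitor alone 7 rose and none fell in edgeR, against 5.78% and 7.24% of all genes. At an unadjusted p under 0.05 the counts were 16 and 0, where 29.4% of all genes reached that level in either direction. DESeq2 called 10 higher and 0 lower there. With nocodazole under inhibitor none passed in edgeR or DESeq2, where edgeR called 0.0835% of all genes. At an unadjusted p under 0.05 there were 5 of 48, against 5.98% of all genes. Lncpint, a long noncoding RNA gene regulated by p53, rose by 1.31 (edgeR adjusted p = 5.41e-05), from 6.20 to 10.1 CPM in DMSO to 16.2 to 25.7 CPM with nocodazole. Xist, the RNA of X inactivation, ranged from 112 to 225 CPM in DMSO and from 297 to 349 CPM with nocodazole, a log2 change of 1.07 (edgeR adjusted p = 0.000689). No sex of the embryos is recorded in the sample details used here, and its part in the Xist values was not tested. Tsix lies antisense to Xist, and as the strand setting is not given, their reads cannot be told apart. Both are counted among the 22 that rose.

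The genes with patterns nearest to each transcript were found by the root mean square difference of centred log2 CPM over the 16 libraries, among 9236 genes of at least 10 CPM. Nearest to Malat1 were Eml5, a microtubule-associated protein gene, at 0.0972, Phf20l1, a chromatin reader gene, at 0.0978, Nktr at 0.103, Tsc1, a brake on mTORC1, at 0.109 and Cwc22, a splicing factor gene, at 0.112. Meg3 was nearest to Rbm4b, an RNA-binding protein gene, at 0.0842 and Pnisr, an SR-rich nuclear protein gene, at 0.087. Pnisr was also among the nearest to Snhg11, at 0.0767, after Sfi1 at 0.0702. Neat1 had no gene as close, with Alms1 at 0.199 and Mrgbp at 0.21. Miat was nearest to Aak1 and Dst, both at 0.103, Rian to C530008M17Rik at 0.0577 and Cacng7 at 0.0586, and Mirg to Luc7l2 at 0.0716 and Xrn1 at 0.0718.

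Among the 7 transcripts themselves, Meg3 and Snhg11 were closest to each other, at 0.0959, so that Snhg11 ranked 5 among the genes nearest to Meg3. Rian, which among these transcripts follows Meg3 in the cluster, was 0.163 from Meg3 and ranked 330. Rian and Mirg differed by 0.127. Malat1 and its neighbour Neat1 differed by 0.414, and Neat1 ranked 6824 among the genes nearest to Malat1. These are distances over libraries that share their groups, and they describe the pattern only. A distance grows with the size of a change and with noise at low counts, as in Neat1. By group mean, Malat1 and Neat1 had the same order.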

How the data were processed

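RNA was extracted with a ReliaPrep kit and ribosomal RNA was depleted with Kapa RiboErase, per the labels' protocols. The authors deposited raw counts per Ensembl gene identifier for 16 libraries. The submitters' processing notes name STAR, Salmon and GRCm39, without versions or roles, so the counts may be rounded estimates. Strand and multi-mapping rules are not given in the sources used here. Columns were matched to samples by the description label. GENCODE M21 gave a symbol to 94.1% of identifiers. The 7 transcripts, gene lists and tests were chosen with earlier results of these data known. No label says that replicates were separate cultures, so p-values measure the spread between libraries, which may be technical.

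In edgeR 4.0.16 (R 4.3.3), library sizes were scaled by TMM, low counts were removed by filterByExpr, and all 16 libraries entered 1 quasi-likelihood model with a mean for each group. Adjusted p is Benjamini-Hochberg over 19156 genes, called below 0.05. The procedure was tested on simulated data, with changes put into random genes above 1 CPM. With nocodazole without inhibitor, 91 of 100 genes with a log2 change of 1 were called, and 46 of 100 with 0.5. The simulation changed 100 genes at each size among 18800, whereas 37.5% of genes were called in the real comparison. The cutoff therefore differs, and these shares are not those for the 7 transcripts or the other comparisons. Changes of 0.5 or less can still be missed, and a transcript that did not pass is not shown to be unchanged. Ratios used counts plus 1 read. Named are the 7 transcripts, up to 3 called genes of at least 10 CPM with the largest change per list and comparison (some left out for brevity), and the nearest patterns, 5 for Malat1 and 2 for each of the others. Dlk1, Rtl1 and the marker genes given with levels were named after their values were seen. Libraries of a group differed beyond sampling noise, with a chi-square of at least 8.28 per degree of freedom, so none was a copy of another. Alternatives were RLE scaling, unscaled totals, totals without the 7 transcripts, no filter, DESeq2 1.42.0, fits of only the compared groups, the replicate block and leaving out each library.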

Additional observations from a re-analysis of the deposited data

Results flagged for a closer look

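The nocodazole change differed between cultures with and without inhibitor for 3 transcripts, by the edgeR test of that difference. The interaction was -1.60 for Neat1, -0.53 for Miat and -0.47 for Meg3 on the log2 scale. This test contains the comparison on which the set was chosen, so it is not separate support for the nocodazole changes. Dixon's test over 28 sets of 4 libraries found no library that stood apart for any of the 7 transcripts.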

How the results depend on the processing

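The calls for Neat1 and Miat (interaction, and inhibitor with nocodazole) held under every alternative run, and the Meg3 calls held under all but the left-out libraries named in the report. All of these calls reuse libraries of the comparison on which the set was chosen. Over all genes, the count called for nocodazole with inhibitor was 16, but 30 with unscaled totals, 28 without the filter, 127 with DESeq2, 6 with only these groups in the fit and 5 with the replicate block, and from 3 to 88 with 1 library left out. It was 88 without inhibitor plus nocodazole replicate 1. The cause was not tested. The count for inhibitor without nocodazole, 2494, was from 1242 to 3087 with 1 library left out, with the low values without DMSO replicate 2 (1523) or 4 (1274) or inhibitor replicate 2 (1242) or 3 (1290). Near 0, signs turned: Mirg with inhibitor was 0.0428 with unscaled totals and from -0.049 to 0.0294 with 1 library left out. Leaving out 1 library gave -0.093 to 0.0363 for Malat1 and -0.125 to 0.0562 for Neat1 (nocodazole with inhibitor), and -0.0712 to 0.0193 for the Rian interaction. Same-numbered replicates did not deviate together as a rule: 11 of 24 pairs had a correlation over 0.1, and 4 of 16 libraries correlated best with their own number. Pairs of different number had a median correlation of -0.0555 and ran from -0.653 to 0.759. Nocodazole replicates 1 and 2, inhibitor replicate 2 and inhibitor plus nocodazole replicate 1 deviated together across groups, with correlations of 0.53 to 0.759. Their description labels follow each other, and no DMSO library is among them. Their mitochondrial shares were 1.36% to 1.71%. A batch shared by these libraries was not tested. With the replicate block no call of the 7 transcripts changed. Neat1 limits the depth, with 175 counts in its lowest library.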
